A study of Mus musculus with 13 samples.

Results

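The mouse genes named Zfp followed by a number encode zinc finger proteins, and the 179 of them with at least 100 counts summed over the 4 input libraries are described here. The deposited table of 27071 genes holds 350 such Zfp genes, so 171 lay under that minimum. They were chosen by their counts in the input libraries, so every level of the members in input is a description. All 179 passed the filter on low counts that was applied to the whole table.

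Total RNA was incubated with purified protein carrying the KH and Tudor domains of dAKAP1 (KHT), the protein was recovered by its tag, and the RNA that came with it was sequenced. dAKAP1 is a scaffold protein of the outer mitochondrial membrane, and its KH and Tudor domains lie in the part that faces the cytosol. The 12 libraries used fall into 4 with the KHT bait, 4 negative controls (NEG 1, 3, 4 and 5) and 4 of untreated input RNA (IPT). NEG 2 held no counts at all and was left out. NEG stands for empty antiMBP beads, the tag MBP alone or KHT(GDDG), a version of the KHT protein, and the labels do not say which library had which, so NEG was 1 group. All 3 groups came from MA-10, a line derived from a mouse tumour of Leydig cells, with no other genotype or treatment named. One free-text field of the samples titled KHT mentions negative controls, but their treatment entries name KHT, and the titles were followed. Nothing says that the libraries came from separate cultures, so the spread within a group, and each p-value resting on it, may be technical and belongs to 1 cell line. All 10 Leydig cell markers looked at were above 0 in KHT, NEG and IPT, and they summed to 1641 to 4948 counts in the KHT libraries, 0 to 96 in NEG, with none in NEG 1, and 3464 to 6333 in IPT.

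Most Zfp genes encode proteins with arrays of C2H2 zinc fingers, each finger holding a zinc ion and reading a few bases of DNA. Many carry a KRAB domain, which recruits Trim28 and the histone methyltransferase Setdb1 to silence transposons and some imprinted genes, and these genes sit in clusters of related copies. Others share only the name and the finger, among them proteins that bind mRNA or act at the ribosome.

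The members followed that clustered layout. In the RefSeq annotation of GRCm38.p6, 178 of the 179 had a position and all 178 were protein-coding. Chromosome 7 held 37 members, 20.8% against 7.0% of all placed genes over the same minimum, and chromosome 17 held 29, 16.3% against 5.13%. In all, 87 members lay within 200 kb of another member. Reads of near-identical copies may have been shared among cluster members, so the count of any 1 of them is uncertain. The span of another annotated gene overlapped that of 58 of the 178. Zfp319, Zfp574, Zfp597, Zfp687 and Zfp91 are among them, so genes named below without mention of an overlap can have one. Whether such pairs share exons was not looked at, and whether the counting used strand is not given, so the counts of such pairs are uncertain too.

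The members were counted at low levels. Their summed input counts had a median of 216 and quartiles of 144.5 and 388, while all genes over the same minimum had a median of 389. Only 8 members reached 1000. Zfp131, a zinc finger protein with a BTB domain, had the most, with 4201, which was 6.91% of the members' 60770 input counts. At the low edge, Zfp563, Zfp629, Zfp74 and Zfp790 were kept with exactly 100 input counts each, while Zfp189 with 99, Zfp707 with 97, Zfp637 with 95 and Zfp395 with 93 were left out.

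The KHT and IPT libraries each detected every member, and the NEG libraries 9 to 99 of the 179. The KHT libraries held 15966, 9401, 15643 and 7507 member counts. The NEG libraries held 26, 141, 84 and 348 in NEG 1, 3, 4 and 5. The IPT libraries held 19812, 12291, 12223 and 16444. No member was at 0 in any KHT or IPT library, whereas 170 of 179 were at 0 in NEG 1, 134 in NEG 3, 153 in NEG 4 and 80 in NEG 5.

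These zeros went with little sequence outside a few features. Total counts ran from 1955446 to 3689792 in KHT, from 1162178 to 1618998 in NEG and from 2487679 to 3085423 in IPT. The 9 features that each took at least 0.5% of the pooled NEG counts, CT010467.1 and Lars2 first among them, held 42.9% ± 9.88 of the counts in KHT, 97.1% ± 0.964 in NEG and 32.6% ± 5.62 in IPT (mean ± SD, n = 4 each). Outside them, 929348 to 2101632 counts were left in KHT, 31318 to 49062 in NEG and 1542713 to 2237374 in IPT. Of those remaining counts, the Zfp members took 0.919%, 0.896%, 0.744% and 0.808% in KHT 1 to 4. They took 0.0830%, 0.359%, 0.243% and 0.709% in NEG 1, 3, 4 and 5, with exact binomial 95% intervals of 0.0542% to 0.122% for NEG 1 and 0.637% to 0.788% for NEG 5. They took 0.903%, 0.753%, 0.792% and 0.735% in IPT 1 to 4. The mean share was 0.842% ± 0.0806 in KHT, 0.348% ± 0.266 in NEG and 0.796% ± 0.0755 in IPT (± SD over 4 libraries each). Each KHT library lay above each NEG library on this scale, but KHT 3 lay within the interval of NEG 5, and the KHT and IPT libraries overlapped. When the 11 features with at least 0.1% of the pooled NEG counts were left out instead, KHT 3 stood at 0.763% and NEG 5 at 0.787%, so KHT and NEG then overlapped. The intervals cover counting error only, since reads were not counted by molecule.

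**Figure D1:**
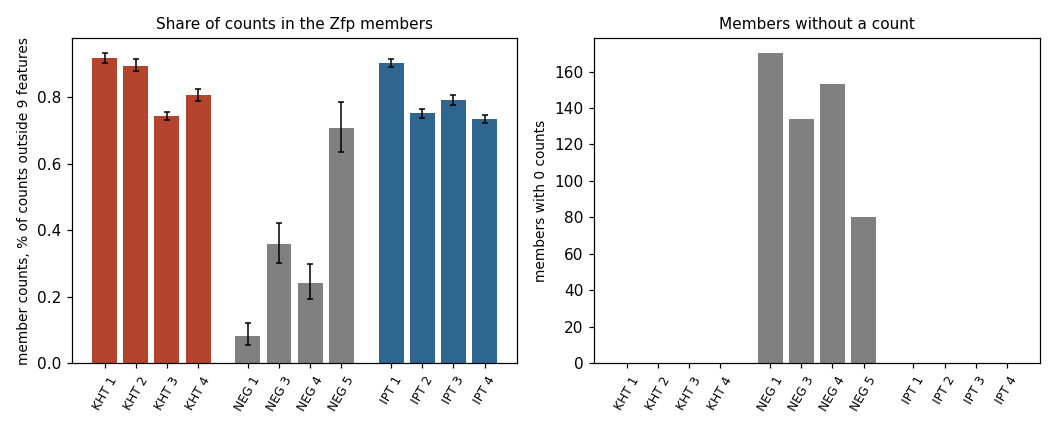
Left, counts of the 179 Zfp members as a percentage of counts outside 9 dominant features in each library, with exact binomial 95% intervals; right, the number of members with 0 counts in each library. The KHT libraries run from 0.744% to 0.919%, the NEG libraries from 0.0830% to 0.709% and the IPT libraries from 0.735% to 0.903%, and the NEG libraries alone lack members, 80 to 170 of them.

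The depth of NEG set what could be seen of any 1 gene. If the members had held the same share in NEG as in IPT, 249, 313, 276 and 390 counts would have been found in NEG 1, 3, 4 and 5, against 26, 141, 84 and 348 observed, a ratio of 0.104, 0.451, 0.305 and 0.891. At that share the median member would have had 0.884 counts in NEG 1 and 1.38 in NEG 5. For most members a zero in a single NEG library could therefore not be told from the input share at this depth. Of the 13 members for which at least 3 counts would then have been found in NEG 1, 9 were at 0, and of the 30 such members in NEG 5, 2 were at 0.

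Summed over the 4 NEG libraries, 62 members had no count, 77 were above 0 in 1 library, 23 in 2, 12 in 3 and 5 in all 4. NEG 5 alone accounted for 62 of the 77. The members at 0 throughout NEG had a median of 153.5 summed input counts, and those above 0 in some NEG library had 305. Of the 179 NEG values above 0, 85 were exactly 2 and 22 were exactly 1.

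Set against the negative controls, 58 of the 179 members were higher in KHT than in NEG (edgeR's quasi-likelihood test, Benjamini-Hochberg adjusted p under 0.05 over all 10714 genes tested). This is 32.4% of the members, beside 31.0% of all genes tested and 36.1% of genes with the same minimum of input counts. The members' share was thus near that of other genes, and it is no result about zinc finger genes. None of the 179 was lower by that test, beside 2.72% of all genes and 2.15% of genes with the same minimum of input counts. In that direction 2 members had an unadjusted p under 0.05 in edgeR, and limma voom and DESeq2 each called 1. Ranges of CPM (counts scaled by TMM library size) did not overlap, with KHT higher, for 88 members, 49.2% beside 45.8% of all genes tested. That pool includes genes under the input minimum, and the share over genes with the same minimum is not given. The median log2 fold change of KHT over NEG was 2.0 over the members and 1.73 over all genes tested. Among the 117 members above 0 in NEG it was 1.12, and with the 62 others set at the lower bounds given below the members' median was 0.80.

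The count of 58 rested on single NEG libraries and on the scaling. Without NEG 1 it was 20, or 11.2% of the members beside 15.0% of all genes tested, and without NEG 5 it was 94, or 52.5% beside 47.2%. The swing was therefore shared by the whole table. With total counts as library sizes, all 179 members were called, beside 97.3% of all genes, and their median log2 fold change was 5.94, beside 5.66 over all genes.

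Of the 58 members called, 38 were at 0 in every NEG library, 14 had 1 to 3 NEG counts and 6 had more. For a gene at 0 in all of NEG the fold is a lower bound, taken against 3 counts summed over the group, each group's counts being divided by its summed TMM-scaled library size. For the 38 the bound ran from 1.03 to 5.49 with a median of 1.66. Values of 2 outnumbered values of 1 over the whole table too, as in NEG 5 with 2286 genes at 2 and 779 at 1. Whether 2 counts can stand for 1 fragment was not tested. If they do, these bounds would be lower and the counting intervals given below wider. The share called was lowest among members with 100 to 149 summed input counts, at 17.0% of 47 beside 16.7% of all genes in that range. Above that it stayed between 37.3% and 39.4% in the members, while over all genes it was 32.9% at 150 to 199 counts and 44.1% at 1000 or more. The top range held only 8 members, of which 3 were called. Genes of the Zkscan, Zscan, Zbtb and Klf families, which also encode zinc finger proteins, passed in the same direction in 20 of 56 tested, or 35.7%. Of the 171 Zfp genes under the minimum, 56 passed the filter on low counts and 2 of them, or 3.57%, were called. Of the 56, 37 were at 0 in NEG. Few genes under that minimum were called in the whole table too. Of all 10714 genes tested 3324 were called, and 3311 of these were among the 9164 with the minimum.

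**Figure D2:**
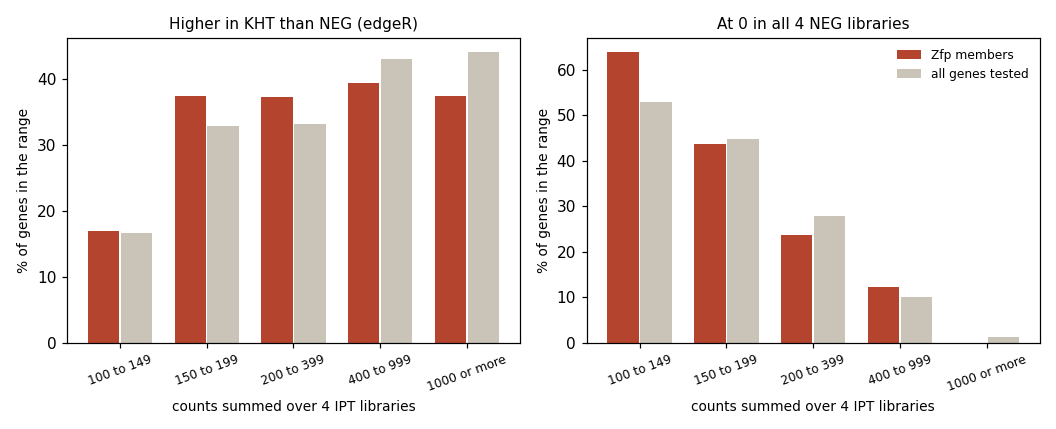
Percentage of Zfp members and of all genes tested that were higher in KHT than in NEG (left) or at 0 in all 4 NEG libraries (right), by counts summed over the 4 IPT libraries. In the lowest range members and all genes differ little in calls: 17.0% and 16.7% were called in the lowest range, and 63.8% and 52.8% were at 0 in NEG there.

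Zfp654 (chr16:64780347-64851937) had the smallest p of the members. It had 103, 97, 216 and 99 counts in KHT and 0 in each NEG library, with 148, 132, 131 and 206 in IPT. Its level in KHT was at least 5.49-fold that in NEG (edgeR, adjusted p = 0.00325), and the KHT and NEG values did not overlap.

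Zfp966 (chr2:175918283-175931100) had 178, 107, 137 and 42 counts in KHT, 0 in NEG and 202, 93, 67 and 123 in IPT, at least 4.95-fold higher in KHT than in NEG (edgeR, adjusted p = 0.00613). Zfp317 (chr9:19622038-19649743) had 158, 78, 128 and 50 counts in KHT, 0 in NEG and 164, 86, 72 and 128 in IPT, at least 4.41-fold higher in KHT (edgeR, adjusted p = 0.00413). Zfp335 (chr2:164891882-164912585), needed for neural progenitors and mutated in human microcephaly, had 64, 46, 112 and 67 counts in KHT, 0 in NEG and 110, 96, 81 and 111 in IPT, at least 3.08-fold higher in KHT (edgeR, adjusted p = 0.0062). All 3 were clear of NEG in every KHT library, though the antisense gene Zfp335os overlaps Zfp335. Zfp787 and Zfp319 followed the same pattern at fewer counts, at least 2.16-fold and 2.06-fold higher in KHT than in NEG (edgeR, adjusted p = 0.00923 and 0.0101).

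Several members with known roles in RNA or ribosome biology were measured, and they did not share 1 pattern. Zfp598, a ubiquitin ligase that marks collided ribosomes, was higher in KHT. It had 173, 130, 174 and 79 counts in KHT, against 0, 0, 0 and 2 in NEG 1, 3, 4 and 5, and 230, 129, 96 and 152 in IPT. Its ratio of KHT to NEG was 8.89, with a 95% counting interval of 2.45 to 73.6 (edgeR, adjusted p = 0.00757). Zfp326, a subunit of the DBIRD complex that links transcription to splicing, had 46, 23, 29 and 17 counts in KHT and 0 in NEG, at least 1.23-fold higher in KHT (edgeR, adjusted p = 0.029). The call of Zfp326 did not hold without NEG 1, NEG 3 or NEG 4 (edgeR, adjusted p = 0.0864, 0.059 and 0.0561).

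Zfp36, known as tristetraprolin, binds AU-rich elements and brings mRNAs to decay. Its counts were 15, 28, 29 and 24 in KHT, 2, 3, 2 and 0 in NEG and 51, 41, 16 and 64 in IPT. With NEG so shallow, the mean was 4.44 ± 2.15 CPM in the KHT libraries and, from 7 counts, 10.1 ± 7.80 CPM in the NEG libraries (SD, n = 4 each), and the log2 fold change of -1.08 did not pass (edgeR, adjusted p = 0.25). Zfp622, related to a yeast factor that matures the large ribosomal subunit, had 78, 35, 96 and 24 counts in KHT, 2, 5, 0 and 5 in NEG and 62, 61, 52 and 74 in IPT, with a log2 fold change of -0.76 (edgeR, adjusted p = 0.246). KHT and NEG overlapped for both genes, and both log2 values were positive with total counts as library sizes, at 2.92 for Zfp36 and 3.27 for Zfp622.

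Zfp106 and Zfp638, which bind RNA, and Zfp207 (BuGZ), which loads Bub3 at the kinetochore, were seen more often in NEG. Zfp106 had 523, 323, 440 and 187 counts in KHT, 0, 8, 6 and 10 in NEG and 646, 344, 317 and 513 in IPT, with a log2 fold change of 0.93 ± 0.61 (SE; edgeR, adjusted p = 0.218). Zfp638 had 289, 188, 323 and 154 counts in KHT and 0, 6, 0 and 7 in NEG, with a log2 fold change of 1.25 (edgeR, adjusted p = 0.108), and it passed without NEG 5 (edgeR, adjusted p = 0.0342). DESeq2 called both with KHT above NEG (adjusted p = 0.0154 for Zfp106 and 0.0075 for Zfp638). Zfp207 (chr11:80383279-80408561) had 193, 115, 238 and 115 counts in KHT, 2, 18, 8 and 9 in NEG and 202, 205, 156 and 290 in IPT. Its mean was 27.0 ± 1.37 CPM in KHT libraries and 52.3 ± 42.5 CPM in NEG libraries (SD, n = 4 each), a log2 fold change of -0.88 ± 0.48 (SE; edgeR, adjusted p = 0.144), and the groups overlapped. Without NEG 1 it was lower in KHT (edgeR, adjusted p = 0.0346), as it was in DESeq2 (adjusted p = 0.036), while with total counts as library sizes its log2 fold change was 3.19.

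Among members known to silence transposons or guard imprints, Zfp809, Zfp445 and Zfp568 were each higher in KHT than in NEG. Zfp809, which silences murine leukaemia virus in embryonic cells, had 135, 54, 106 and 62 counts in KHT, 0, 0, 0 and 2 in NEG and 154, 78, 100 and 133 in IPT, a ratio to NEG of 5.71 with a counting interval of 1.57 to 47.3 (edgeR, adjusted p = 0.0221). Zfp568, which represses a placental transcript of Igf2, had 128, 70, 100 and 58 counts in KHT, 0, 0, 0 and 1 in NEG and 206, 92, 76 and 85 in IPT, a ratio of 11.4 with an interval of 2.03 to 451 (edgeR, adjusted p = 0.0131). Zfp445, which maintains imprints, had 584, 385, 391 and 204 counts in KHT, 0, 0, 0 and 10 in NEG and 633, 257, 265 and 363 in IPT. Its mean was 65.4 ± 21.0 CPM in KHT libraries and 10.3 ± 20.6 CPM in NEG libraries (SD, n = 4 each), a log2 fold change of 2.45 ± 0.77 (SE; edgeR, adjusted p = 0.0221). For all 3 genes every NEG count came from NEG 5, and no KHT library overlapped NEG. The calls of Zfp445 and Zfp809 did not hold without NEG 1 (edgeR, adjusted p = 0.063 and 0.0749), without NEG 3 (0.0627 and 0.0525) or without NEG 4 (0.0596 and 0.0503). Zkscan7 overlaps Zfp445, and Zfp599 overlaps Zfp809.

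Genes of the machinery that KRAB zinc finger proteins work with were in a like position. Of 20 listed partners and HUSH complex genes, 6 passed with KHT above NEG, 30.0% beside the 31.0% of all genes, and the median log2 fold change of the 20 was 1.45. Trim28, the scaffold that KRAB domains bind, had 451, 193, 640 and 297 counts in KHT, 0, 1, 0 and 6 in NEG and 450, 573, 491 and 765 in IPT. Its mean was 62.9 ± 14.0 CPM in KHT libraries and 7.70 ± 11.7 CPM in NEG libraries (SD, n = 4 each), a log2 fold change of 2.87 (edgeR, adjusted p = 0.00941). Hells, a chromatin remodeller needed for DNA methylation of repeats, had 324, 208, 379 and 204 counts in KHT and 0, 0, 0 and 4 in NEG, a log2 fold change of 3.21 (edgeR, adjusted p = 0.00492). The others called were Hdac1, Morc2a, Uhrf1 and Mphosph8, and Uhrf1 did not pass without NEG 1, NEG 4, KHT 3 or KHT 4 (edgeR, adjusted p = 0.0528 to 0.0687). Setdb1 did not pass, with 9 counts in NEG 5 and none in the other NEG libraries (log2 fold change 1.22; edgeR, adjusted p = 0.148).

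Among chromatin and transcription factors, Zfp644, which recruits the G9a and GLP histone methyltransferases, was higher in KHT. It had 256, 177, 306 and 170 counts in KHT, 4, 0, 0 and 2 in NEG and 323, 229, 205 and 396 in IPT, a log2 fold change of 2.35 ± 0.61 over NEG (SE; edgeR, adjusted p = 0.01). Zfp740 (chr15:102203506-102215610) had 371, 239, 260 and 130 counts in KHT, 0, 2, 0 and 3 in NEG and 460, 212, 205 and 320 in IPT, a log2 fold change of 2.71 ± 0.68 (SE; edgeR, adjusted p = 0.00834). Both were above NEG in every KHT library, though Csad overlaps Zfp740.

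Zfp451, a SUMO ligase, had 230, 138, 211 and 120 counts in KHT, 0, 0, 0 and 2 in NEG and 304, 173, 167 and 197 in IPT, a ratio of 11.2 to NEG with a counting interval of 3.08 to 92.5 (edgeR, adjusted p = 0.00431). Zfp217, a gene amplified in human breast cancer, Zfp143, which binds promoters and chromatin loop anchors, and Zfp687, a partner of Zmynd8, were at 0 in NEG and at least 2.43-fold, 1.64-fold and 1.35-fold higher in KHT (edgeR, adjusted p = 0.0163, 0.0369 and 0.0237). Zfp384 had 2 counts in NEG 3 and none in the other NEG libraries, and its ratio of 4.93 (counting interval 1.35 to 40.9) passed (edgeR, adjusted p = 0.0408). It was the 1 called member whose KHT and NEG ranges overlapped. Zfp143, Zfp687 and Zfp384 did not pass without NEG 1 (edgeR, adjusted p = 0.0897, 0.0724 and 0.13). Zfp143 was also lost without NEG 3, NEG 4, KHT 1 or KHT 3 (0.0529 to 0.0628), and Zfp384 without NEG 4, NEG 5 or any of KHT 1 to 3 (0.0516 to 0.0882).

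The members with the most NEG counts did not pass. Zfp131 (chr13:119765186-119791477) had 933, 496, 1002 and 671 counts in KHT, 0, 4, 16 and 26 in NEG and 1071, 992, 1240 and 898 in IPT. Its mean was 130.0 ± 25.8 CPM in KHT libraries and 59.9 ± 56.0 CPM in NEG libraries (SD, n = 4 each), a log2 fold change of 1.13 ± 0.78 (SE; edgeR, adjusted p = 0.239). Every KHT library was nonetheless above every NEG library.

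Zfp91, a ubiquitin ligase, had 563, 288, 493 and 178 counts in KHT, 2, 9, 4 and 6 in NEG and 648, 470, 372 and 607 in IPT (log2 fold change 1.12; edgeR, adjusted p = 0.11). Zfp148, or ZBP-89, a factor of GC-rich promoters, had 345, 238, 227 and 125 counts in KHT, 1, 6, 4 and 2 in NEG and 444, 238, 198 and 304 in IPT (log2 fold change 1.19; edgeR, adjusted p = 0.0983). Zfp281, which regulates the exit from pluripotency, had 82, 73, 110 and 59 counts in KHT, 3, 8, 2 and 3 in NEG and 118, 116, 117 and 148 in IPT (log2 fold change -0.60; edgeR, adjusted p = 0.296). These 3 and Zfp207 were among the 5 members above 0 in all 4 NEG libraries, and KHT and NEG overlapped for each of the 4. Without NEG 3, Zfp91 and Zfp148 passed with KHT above NEG (edgeR, adjusted p = 0.0447 and 0.0481), and DESeq2 called both on all 12 libraries (adjusted p = 0.00443 and 0.0185). The log2 fold change of Zfp281 was 0.12 without NEG 3 and 3.43 with total counts as library sizes.

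Zfp292, a large zinc finger protein, showed how far 1 library could carry a value. It had 181, 97, 161 and 90 counts in KHT and 219, 126, 130 and 167 in IPT, and its 10 NEG counts were all in NEG 5. The log2 fold change was 0.82 (edgeR, adjusted p = 0.311), and without NEG 5 it passed (edgeR, adjusted p = 0.0005).

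**Figure D3:**
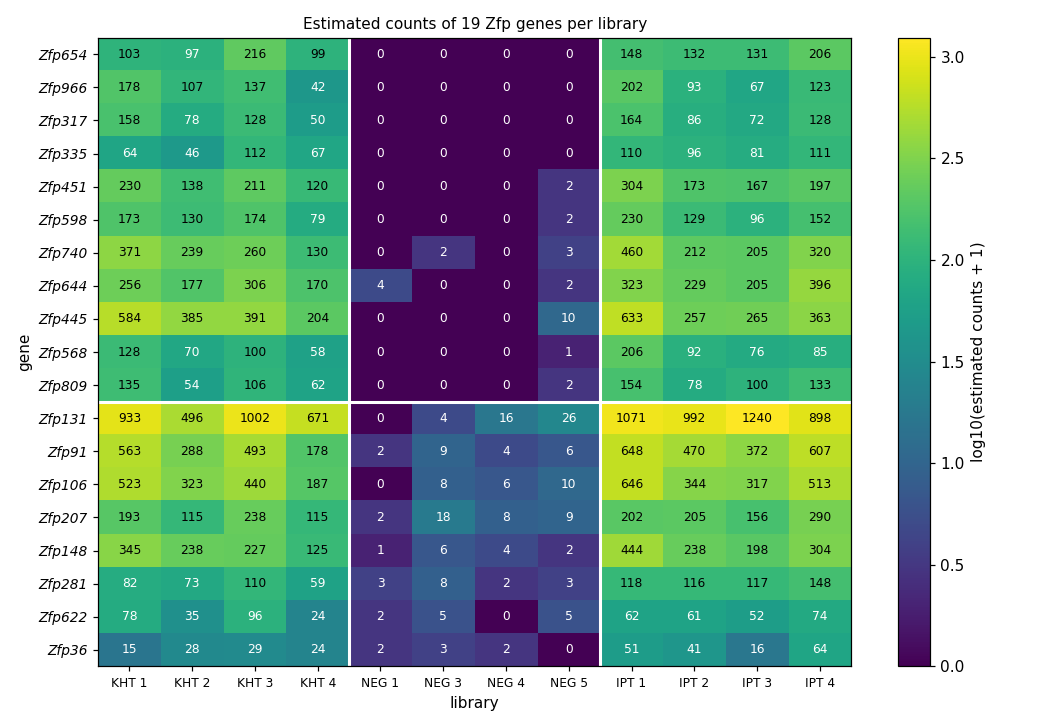
Estimated counts of 19 Zfp genes in each KHT, NEG and IPT library, with cell colour on a log10(count + 1) scale; above the white line stand genes that passed with KHT above NEG, and those below it did not pass the test. KHT counts are 42 to 584 above the line and 15 to 1002 below it, beside NEG counts of 0 to 10 and 0 to 26.

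On the scale of CPM, the members stood in KHT at nearly their levels in input. CPM are relative to the library, so the amount of RNA pulled down was not measured. Since input counts chose the members, the values of KHT and IPT are set side by side with no test. The log2 fold change of KHT over IPT had a median of 0.08 and quartiles of -0.08 and 0.20 over the members, with a median standard error of 0.35. It lay within 0.5 for 169 members, 94.4% against 92.6% of genes with the same minimum of input counts. The sign was positive for 116 members, 64.8% against 49.4% of those genes. The members' median was 0.03 without KHT 1, KHT 2 and IPT 1, which are taken up below. Over the 179 members, log2 mean CPM in KHT and in IPT had a Pearson r of 0.968, beside 0.965 over 9164 genes with the same minimum, a description across genes that are no replicates.

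The extremes lay among members with few counts. Zfp606 had 57, 51, 19 and 19 counts in KHT and 62, 16, 16 and 19 in IPT, at a log2 fold change of 0.93 ± 0.51 (SE). Zfp629 had 17, 6, 18 and 1 counts in KHT and 27, 25, 11 and 37 in IPT, at -0.93 ± 0.50. Both ranges overlapped.

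Among members with at least 200 input counts, Zfp142 had the lowest value, with 62, 29, 104 and 56 counts in KHT, 159, 103, 107 and 119 in IPT and a log2 fold change of -0.57 ± 0.32 (SE). Zfp687 had -0.45, Zfp367 -0.32, Zfp316 -0.29, and Zfp64 and Zfp950 -0.25 each. At the other end Zfp217 had 89, 57, 61 and 21 counts in KHT, 69, 58, 26 and 55 in IPT and a log2 fold change of 0.55 ± 0.34. Zfp445 had 0.52, Zfp746, also called PARIS and a target of the ubiquitin ligase Parkin, had 0.51, Zfp871 had 0.48, and Zfp319 and Zfp970 had 0.38 each. CPM ranges did not overlap, with KHT above IPT, for 4 members, 2.23% beside 0.84% of all genes tested in that direction. These 4, named after their values were seen, were Zfp319, Zfp574, Zfp90 and Zfp871. The ranges of the other 175 members overlapped. All genes tested include genes under the input minimum, and the share over genes with the same minimum is not given.

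**Figure D4:**
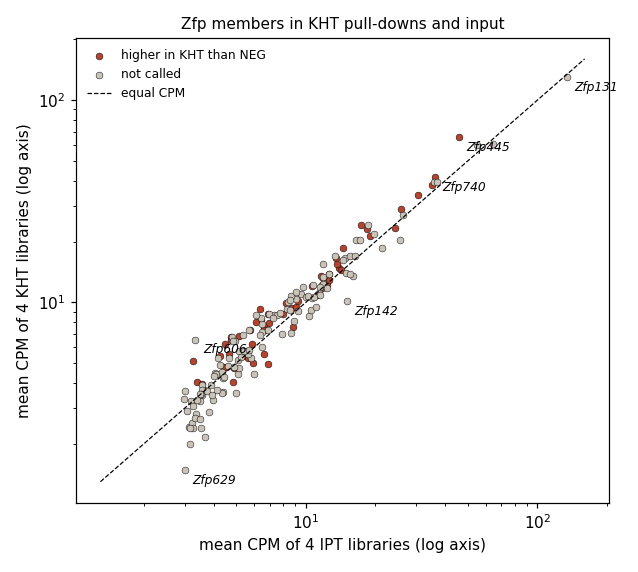
Mean CPM of each of the 179 Zfp members in 4 KHT libraries against 4 IPT libraries, both on log axes, with the dashed line marking equal values and colour marking the 58 members higher in KHT than in NEG. The members follow the line (Pearson r of log2 values 0.968), and Zfp606 and Zfp629 lie farthest from it at log2 fold changes of 0.93 and -0.93.

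Some libraries differed in a way that crossed the groups. KHT 1, KHT 2 and IPT 1 stood apart from the other 5 KHT and IPT libraries, a pattern found after the values were seen. For 42 of 179 members the 3 highest CPM of the 8 libraries were in these 3, 23.5% against 15.6% of genes with the same minimum of input counts. For 5 members, 2.79% against 15.4%, they were the 3 lowest. Of the 42, 8 lay on chromosome 7 (of 37 members there), 7 on chromosome 17 (of 29) and 5 on chromosome 9 (of 9).

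The widest gap was in Zfp945, on chromosome 17. Its CPM were 24.8, 24.6, 5.58 and 6.77 in KHT 1 to 4 and 26.8, 4.83, 7.66 and 8.33 in IPT 1 to 4. Zfp282, whose human counterpart represses a retroviral promoter, had 17.9, 18.2, 7.52 and 9.77 CPM in KHT and 24.0, 9.53, 5.26 and 8.97 in IPT. Zfp597 had 23.3, 19.8, 10.5 and 8.27 CPM in KHT and 25.0, 8.82, 11.0 and 10.0 in IPT. For each, the 3 libraries lay well above the other 5 whichever group they belonged to. Zfp445 had 77.4, 88.7, 44.6 and 51.1 CPM in KHT and 68.0, 36.5, 39.8 and 38.3 in IPT, so its mean was higher in KHT with 2 of the 4 KHT libraries and 1 of the 4 IPT libraries in the high set.

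**Figure D5:**
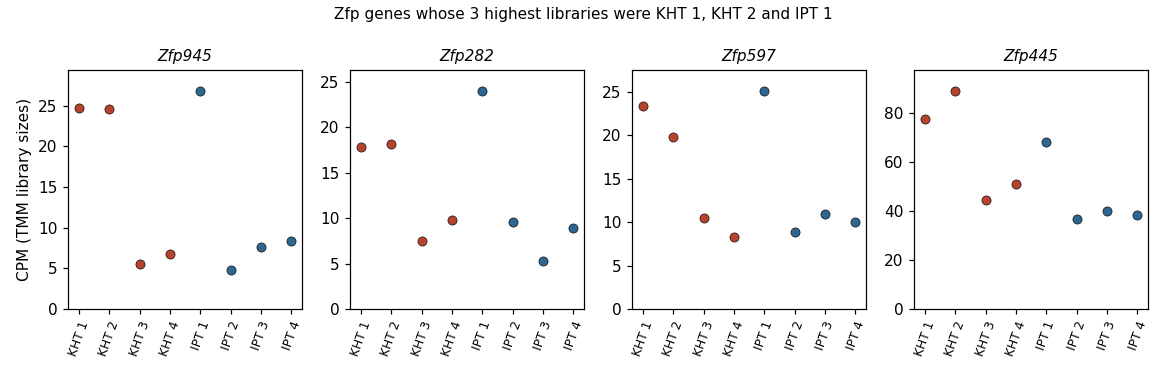
CPM of Zfp945, Zfp282, Zfp597 and Zfp445 in each KHT and IPT library, 1 point a library. KHT 1, KHT 2 and IPT 1 hold the 3 highest values of each gene, as in Zfp945 with 24.8, 24.6 and 26.8 CPM against 4.83 to 8.33 in the other 5 libraries.

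Of the 10 Leydig cell markers, 5 had their 3 lowest CPM of the 8 libraries in these 3 (Cyp11a1, Cyp17a1, Insl3, Fdx1 and Fdxr), 1 had its 3 highest there (Scarb1), and the other 4 (Star, Hsd3b1, Lhcgr and Nr5a1) did neither. Cyp11a1, which starts steroid synthesis by cleaving the side chain of cholesterol, had 26.2, 28.8, 93.6 and 105.8 CPM in KHT and 25.6, 126.0, 87.8 and 136.7 in IPT. Scarb1, the receptor that takes up cholesterol from HDL, had 24.5, 22.8, 17.6 and 18.3 CPM in KHT and 28.1, 9.81, 18.9 and 13.8 in IPT. In bulk RNA, less RNA of a marker per cell and fewer cells giving it cannot be told apart. The 10 Leydig markers together took 0.161%, 0.156%, 0.235% and 0.239% of counts outside the 9 features in KHT 1 to 4 and 0.158%, 0.251%, 0.231% and 0.283% in IPT 1 to 4, with no marker at 0 in any of these. In NEG 1, 3, 4 and 5 they took 0%, 0.0356%, 0.0375% and 0.196%, so that NEG 5 stood highest for these markers as for the Zfp genes. Their part in the levels of the Zfp genes was not tested. Without KHT 1, KHT 2 and IPT 1, KHT exceeded NEG in 41 members by the same test, 22.9% beside 21.7% of all genes, and the median log2 fold change of KHT over IPT was 0.03.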

How the data were processed

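Counts per gene are those the authors deposited, estimated counts that were already whole numbers and unscaled. The tools kallisto and DESeq2 and the builds GRCm38 and mm10 are named per the submitters' processing notes, without versions or roles; the step from transcripts to genes has no description in these sources. Per the labels' protocols, a kit for stranded total RNA was used after ribosomal RNA was depleted, while the molecule field names polyA RNA. A gene name table gave symbols to 27004 of the 27071 identifiers.

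The 12 libraries with counts were fitted in 1 model of 3 groups (edgeR 4.0.16, R 4.3.3, TMM, filterByExpr, robust quasi-likelihood test, Benjamini-Hochberg over 10714 genes). NEG 2 was 0 throughout. Limma 3.58.1 voom, DESeq2 1.42.0, other scalings, filters, values halved and each library left out were alternatives. On simulated data for 10390 genes, 5% of 2-fold and 52% of 4-fold changes were called between KHT and NEG. The changes were rises in KHT, in genes drawn from the whole table above a minimum share. The remaining genes outside the dominant features had equal shares in all groups, unlike the data. These are therefore no rates for the Zfp members. Members and gene lists were chosen with earlier results of these data known. The 40 members named by rule were those with the smallest p in KHT with NEG, the most NEG or IPT counts, the extremes of KHT over IPT among members with at least 200 input counts, those at the minimum, and a list of members of known role. Others are said to be chosen later or are examples. The planned grouping by KRAB domain and finger number needed protein sequences and was not run.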

Additional observations from a re-analysis of the deposited data

Results flagged for a closer look

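In 22 of 168 groups of 4 libraries looked at, 1 library's CPM stood far from the other 3 of its group (the gap to the nearest library filled most of the group's range). Chance gives about 1 in 20 groups, but that rate does not apply to most of these. Of the 22, 18 were in NEG, where 1 count is worth 4.12 to 6.75 CPM, and in 16 of the 18 the other 3 libraries were at 0, so that any count made the remaining library stand apart. NEG 5 was the high library in 14 of them. It stood at 8.24 CPM for Zfp451, Zfp598, Zfp790, Zfp809 and Zfp282, at 4.12 for Zfp568 and Zfp945, at 41.2 for Zfp445 and Zfp292, at 28.9 for Zfp367, at 33.0 for Zfp970, at 16.5 for Zfp64 and Hells, and at 12.4 for Zfp760. NEG 3 was high for Zfp281 at 48.7 and Zfp384 at 12.2, and NEG 4 for Hdac1 at 13.5. NEG 1 was low for Zfp106 at 0. In IPT, IPT 1 was the high library for Zfp445 at 68.0, Zfp945 at 26.8, Zfp760 at 10.7 and Zfp597 at 25.0 CPM.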

How the results depend on the processing

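The 58 members higher in KHT than in NEG became 179 with total counts as library sizes, 13 of 43 tested at a mean of at least 10 CPM, 27 of 169 with values halved, 38 of the 100 members with at least 200 input counts, and 32 without NEG 1 and NEG 5 together, a setting chosen after seeing the data. Leaving out 1 library gave 20 to 94. The share of all genes called moved too, to 97.3%, 24.2%, 26.4% and 24.4% in the fits with total counts, 10 CPM, halved values and neither NEG 1 nor NEG 5. In the main fit, 38 of the 100 members with at least 200 input counts were called. Of all genes there, 33.2% were called from 200 to under 400 counts, 43.1% from 400 to under 1000 and 44.1% from 1000. Of the 58, 20 held in each fit that left out 1 library, and 8 in all 25 fits (Zfp317, Zfp451, Zfp568, Zfp598, Zfp644, Zfp654, Zfp740 and Zfp966). As the 10 CPM fit tested only 43 members, the 8 could come from those alone. The share of all genes holding in these fits is not given, so the 20 and the 8 are no result about the members. The count of members lower in KHT was 0, and 1 in DESeq2 and limma voom, 1 without NEG 1 and NEG 5 together and 0 to 1 when 1 library was left out. The median log2 fold change over NEG (2.0) was 5.94 with total counts, 7.59 without NEG 1 and NEG 5 together (all genes 6.35) and 1.53 to 7.46 with 1 library left out. It was 0.99 both in limma voom and at 10 CPM, under the 1.01 and 1.16 of all genes there. That over IPT (0.08) was -0.17 with total counts and 0.04 to 0.15 with 1 library left out. With all counts as denominator the members' shares were 0.484% in KHT, 0.0120% in NEG and 0.537% in IPT. The sign over NEG turned with total counts for Zfp207 (3.19), Zfp281 (3.43), Zfp36 (2.92), Zfp622 (3.27), Zfp260 (2.87) and Zfp593 (2.90). It also turned for Zfp281 without NEG 3 (0.12; -0.77 to 0.12 with 1 library left out), for Zfp629 in limma voom (-0.96), for Zfp760 without KHT 1, KHT 2 and IPT 1 (-0.29), and for Zfp790, which was 0.25, in voom (-0.67), without those 3 libraries (-0.45), over counts outside the 9 features (-0.0078) and with 1 library left out (-0.21 to 6.97). The cause was not tested.

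Same-numbered libraries did not deviate together in every pair, so the numbers were not taken as pairs. Over all genes tested, the correlations ran from -0.33 to 0.20 for KHT with IPT and from -0.12 to 0.07 for KHT with NEG. Over the members they ran from -0.14 to 0.42, with 3 of 4 pairs over 0.1, and from -0.13 to 0.14. With the replicate number as a block, 83 members were higher in KHT than in NEG, 48 of them among the 58, and 1 was lower (Zfp36). The median was 7.41, beside 47.1% of all genes higher and a median of 6.37 over them. No other library used shares the number of NEG 5, so the block absorbed NEG 5 and it added nothing to KHT against NEG. Without NEG 5 and with no block, 94 members were higher, their median was 7.46, and 47.2% of all genes were higher.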
